A study of Ascaridia galli and Trichostrongylus colubriformis with 4 samples.

Results

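Muscle contractile proteins of 2 parasitic nematodes were examined by transcript abundance. They are the unigenes (assembled transcripts) whose protein name contains myosin, troponin, tropomyosin, paramyosin, twitchin, titin, calponin or unc-89, and not phosphatase. In *Ascaridia galli*, an ascarid-type roundworm of chickens, 165 of 150798 unigenes met this rule. In *Trichostrongylus colubriformis*, a hair-like worm of the sheep intestine, 36 of 43810 did. The names are those of the best protein hit, so a unigene stands for a piece of a transcript that resembles the named protein.

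Nematode body wall muscle is obliquely striated, and its contractile units run along the inner side of the body wall. Thick filaments are built of myosin heavy chains with their light chains around a core of paramyosin, and pull on thin filaments of actin. Tropomyosin and the troponin complex lie on actin and make contraction depend on calcium, and calponin-like proteins bind and stabilise actin. The giant proteins twitchin, titin and UNC-89 carry many immunoglobulin and fibronectin domains. In *Caenorhabditis elegans* twitchin and UNC-89 hold and regulate the thick filament at the A-band and the M-line.

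Whole worms were taken from the intestines of slaughtered hosts and kept in a dish with water in which the moss *Pottia lanceolata* had been macerated, or in distilled water as the control. The extract was made up at 10, 20 and 50 mg/ml for the activity assay, and the concentration behind the RNA is not given in the sources used here. Each worm has 1 library per condition, 4 in all, with no replicate, and no strain, age or sex is given. Dishes held several worms, and how many entered a library is not given.

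The authors' deposited tables call the conditions A and B without naming the extract. All ratios are therefore given as B over A, which leaves the direction of any extract response unknown. A may be the extract in one worm and the water in the other, so directions are not compared between worms. Levels are the authors' normalized counts, and the log2 ratio was taken after adding 1 to both. A unigene was called different at 4-fold or more where the higher of both values reached 20 normalized counts. In *T. colubriformis* 1 read stood for 2 normalized counts in condition A and for 0.5 in condition B. The minimum of 20 and the added 1 were thus fewer reads in A than in B of that worm. In *A. galli* a read stood for nearly the same count in both conditions. A single library per group allows no test of the difference, and each 95% interval (exact Clopper-Pearson) covers counting error only. The tables list no unigene without reads in both conditions.

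Reads recovered from the normalized counts and summed over the listed unigenes came to 87659967 and 69118994 in *A. galli* (A, then B). For *T. colubriformis* they came to 91182265 and 91812201. The sequencing depth of the libraries is not given by these sums. Rescaling the counts to these totals would move every log2 ratio by 0.38 in *A. galli* and by 1.99 in *T. colubriformis*, so values under total scaling stand beside the deposited ones. The unigenes with muscle protein names took 1.62% of these reads in condition A and 1.46% in condition B of *A. galli*. In *T. colubriformis* such unigenes took 0.0499% and 0.0236%. The shares cover only unigenes whose hit carries such a name, with matches outside the sarcomere included, and are not compared between worms.

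In *A. galli* most matches of the rule were somewhat lower in condition B at the deposited scaling, and few differed by large factors. Of 154 unigenes with enough counts, 143 lay within 4-fold, 4 were higher and 7 were lower in condition B. Over all 114411 *A. galli* unigenes with enough counts, 22.7% were higher and 9.76% lower. Below equality lay 112 of the 154, and the log2 ratios had a median of -0.52 (middle 50% from -0.91 to 0.08) against -0.09 over all unigenes. Under total scaling 8 were higher and 4 lower, against 29% and 5.74% of all unigenes, and the median was -0.13 against 0.48. Of the 154, 98 had names of thick filament, thin filament or giant proteins. Among these 98, 69 lay below equality, 4 were higher and 5 lower, and the median was -0.41 (-0.02 under total scaling).

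Abundance matters to the comparison with all unigenes. At a minimum of 100 normalized counts, 0 of 112 muscle unigenes were higher and 5 were lower, against 9.65% and 11.3% of all unigenes, and the medians were -0.56 and -0.71. Among unigenes whose best hit is a protein of the ascaridid worms, the clade of *A. galli*, 3 of 146 muscle unigenes were higher and 6 lower. The background there was 2.95% and 7.7%, and the medians were -0.53 and -0.59. From 100 counts up, and among ascaridid hits, the medians of muscle and of all unigenes were thus close, and the shift is not read as particular to muscle. At 20 to under 100 counts they were apart, with a median of 0.01 and 4 of 42 higher for muscle unigenes against a median of 0.87 and 21698 of 70241 higher for all.

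**Figure D1:**
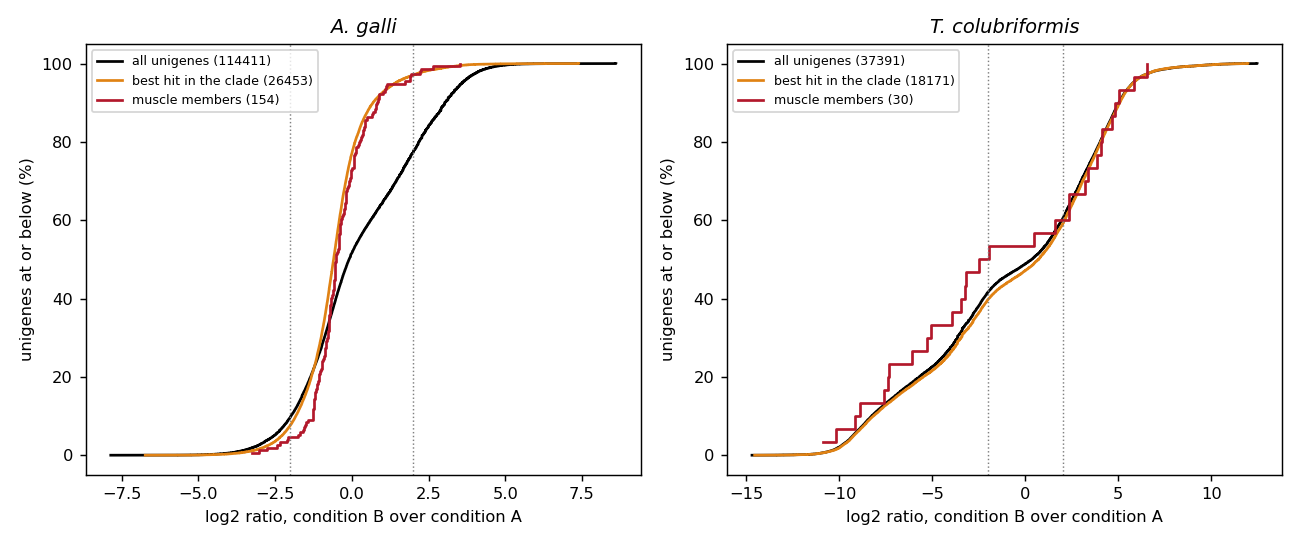
Cumulative share (%) of unigenes with at least 20 normalized counts against the log2 ratio of condition B over condition A, for all unigenes, those with a best hit in the worm's own clade, and the muscle proteins; dotted lines mark 4-fold. In *A. galli* the 154 muscle unigenes follow the clade curve, while in *T. colubriformis* all 3 curves spread far to both sides.

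The thick filament was led by 3 full-length myosin heavy chains in *A. galli*. In UniProt, Myosin-4 is the name of *C. elegans* UNC-54, the main body wall heavy chain, and Myosin-3 that of MYO-3, the heavy chain at the centre of the filament. The unigene aligned with nearly the whole of a *Toxocara canis* unc-54 product (Chick_Unigene_4776, 72.6% identity) read 178261 normalized counts in A and 150161 in B. Its log2 ratio was -0.25 (-0.26 to -0.23), and 0.14 under total scaling. The Myosin-3 unigene (Chick_Unigene_112374) went from 172835 to 99405, a log2 ratio of -0.80 (-0.81 to -0.78), and a further Myosin-4 (Chick_Unigene_59315) went from 117926 to 80805, at -0.55.

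The heavy chains therefore did not share 1 ratio, and their counting intervals did not overlap. The first Myosin-4 sat at 90.9 normalized counts per aligned residue in condition A and Myosin-3 at 88.4. In condition B these levels were 76.6 and 50.8. Differences of this kind between 2 transcripts of the same libraries do not move with the scaling.

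Paramyosin, the core protein, was present as 2 unigenes that both align with the same 879-residue *Loa loa* protein. The first read 103371 normalized counts in A and 67483 in B, a log2 ratio of -0.62. The other read 87333 and 82763, a log2 ratio of -0.08 (-0.10 to -0.06). Summed, paramyosin stood at -0.34 (0.04 under total scaling). Whether reads were split between the 2 unigenes was not tested, so the sum is given beside the single values.

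Light chains sit on the neck of each myosin head. Unigenes with essential chain names had some of the lowest ratios among the abundant unigenes classed here as thick filament. The unigene named CBN-MLC-3 (mlc-3 is the *C. elegans* essential light chain of muscle) read 55803 normalized counts in A and 18915 in B, a log2 ratio of -1.56 (-1.59 to -1.53) and -1.18 under total scaling. The pair named Myosin-2 essential light chain is not placed in muscle by its name. It read 8184 and 3516 for one unigene, and 8108 and 3557 for the other, at -1.22 and -1.19.

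Regulatory light chains were nearer to equality. Myosin regulatory light chain 1, gene name mlc-1, read 9695 and 8156, a log2 ratio of -0.25 that became 0.13 under total scaling. The mlc-4 product, the nonmuscle regulatory chain of *C. elegans*, read 8282 and 7360, at -0.17. A regulatory chain piece of 36.1% identity, with 16.2 and 81.9 normalized counts at 2.27, was the sole thick filament unigene called higher. A piece named essential light chain, with 6.08 and 25.6 normalized counts, was at 1.91. The summed light chains stood at -1.11 against -0.51 for the summed heavy chains, but CBN-MLC-3 held 61.9% of the light chain counts in A and without it the sum was -0.60. The medians of the single unigenes had the opposite order, -0.25 for light chains and -0.55 for heavy chains.

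Most other heavy chain unigenes of *A. galli* were pieces with few counts. Of the 35 heavy chain unigenes with enough counts, 32 lay within 4-fold, 0 were higher and 3 were lower. Over all unigenes 22.7% were higher and 9.76% lower. The 3 lower heavy chain unigenes align with the same *T. canis* unc-54 product (Tcan_06513, 1237 residues). They read 445 and 54.2 normalized counts, 139 and 24.7, and 70.0 and 15.8, with log2 ratios of -3.01, -2.45 and -2.08. A further piece of the same hit, with 18.3 and 34.5 normalized counts, went the other way at 0.88 (its residues 459 to 605 lie inside those of the first, 452 to 1216).

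Heavy chains named Myosin-2 and Myosin-11 were steadier among themselves. The 5 Myosin-2 unigenes had summed counts of 5165 and 3719, at -0.47, and the 6 Myosin-11 unigenes 2081 and 1957, at -0.09 (-0.22 to 0.04). Myosin-7b, by contrast, stood at -1.61 with 536 and 176 summed normalized counts over 2 unigenes. Identity to the hit was low, 35.2% to 36.9% for Myosin-2, 39.2% to 56.5% for Myosin-11 and 27.8% to 32.8% for Myosin-7b.

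On the thin filament of *A. galli*, the most abundant troponin unigene was lower in condition B than the most abundant tropomyosin. Tropomyosin, the coiled coil that covers the myosin binding sites of actin, read 118231 normalized counts in A and 93772 in B (Chick_Unigene_7793). Its log2 ratio was -0.33 (-0.35 to -0.32), and 0.05 under total scaling. Troponin I 2, gene name unc-27, is the inhibitory subunit of body wall muscle in *C. elegans*. It read 69980 and 35531, a log2 ratio of -0.98 and -0.59 under total scaling.

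The unigenes named for other troponin subunits had far fewer normalized counts. Whether further unigenes of these subunits carry another name was not tested. Troponin T, gene name mup-2, anchors the complex on tropomyosin, and its main unigene read 1652 and 916, at -0.85. Another Troponin T hit was represented by 3 unigenes that ran from -0.28 to 0.44. Identity of the 4 Troponin T unigenes to their hits ran from 29.3% to 75%. Troponin C isoform 2, the calcium sensor, read 186 and 63.1 in one unigene and 100.4 and 74.9 in the other, at -1.54 and -0.42. Troponin I 4 (tni-4, a pharyngeal isoform in *C. elegans*) read 132 and 112, at -0.23 with an interval that includes 0. Summed counts put troponin 0.63 lower on the log2 scale than tropomyosin, but Troponin I 2 held 96.6% of the troponin counts in A. The medians of the single unigenes were -0.35 for troponin and -0.41 for tropomyosin, so the order of the sums is that of the most abundant unigenes.

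The abundant calponin-like unigenes had ratios close to each other. The pair of Calponin unigenes that share 1 *Ascaris suum* hit read 80177 and 61029 (-0.39), and 78333 and 58275 (-0.43). A calponin named for the antigen OV9M read 45488 and 30332, at -0.58, and a shorter one 17207 and 13229, at -0.38. The sole thin filament unigene past 4-fold was a calponin repeat piece with 20.3 and 3.94 normalized counts, at -2.11 with a counting interval of -5.59 to -0.13. Under total scaling it was below the minimum of 20 counts.

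**Figure D2:**
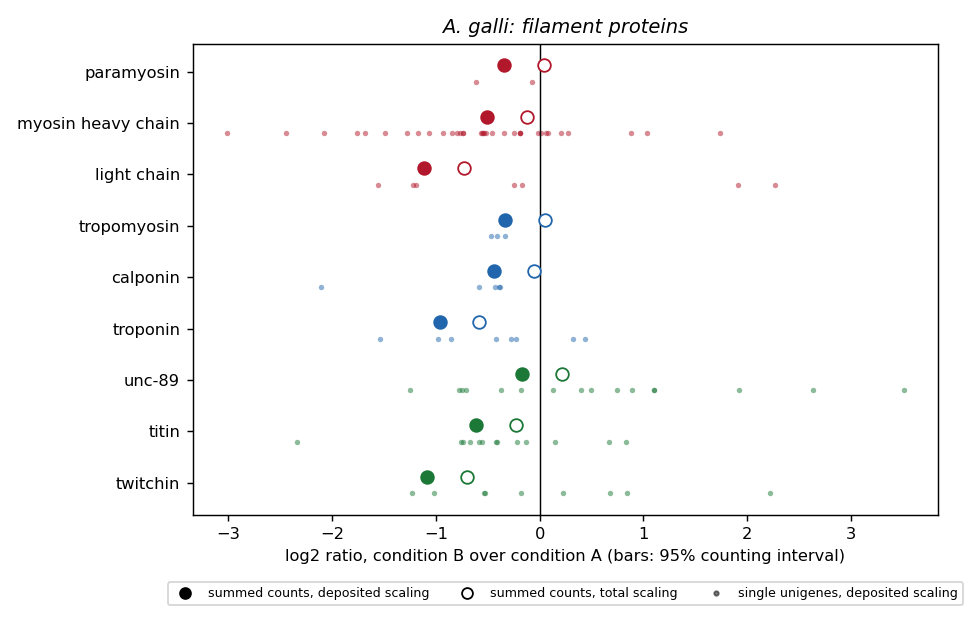
Log2 ratio of condition B over condition A for the filament proteins of *A. galli*, coloured by thick filament (red), thin filament (blue) and giant proteins (green). Filled circles are summed counts at the deposited scaling, open circles the same under total scaling, small points the single unigenes with enough counts, and the 95% counting intervals are mostly narrower than the circles. The summed counts of light chain, troponin and twitchin lie lowest, at -1.11, -0.96 and -1.08, and paramyosin and tropomyosin lie nearest to equality under total scaling.

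Giant proteins made up 39 *A. galli* unigenes, of which 38 had enough counts, 3 were higher, 1 was lower and 34 lay within 4-fold. Over all unigenes 22.7% were higher and 9.76% lower. Titin, a spring-like protein in vertebrates, had the most normalized counts of the giant proteins. These counts are not corrected for length, so they do not rank the giant proteins by transcript number. One titin unigene covering residues 3024 to 6320 of an *A. suum* protein read 126532 and 84520, a log2 ratio of -0.58. A second covering residues 1161 to 6976 of another *A. suum* titin read 16984 and 10015, at -0.76. The lowest was a short titin piece of 54.3% identity (Chick_Unigene_135944) with 2741 and 540 normalized counts, at -2.34 and -1.96 under total scaling.

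Twitchin, the kinase-bearing protein that regulates relaxation and is encoded by unc-22 in *C. elegans*, was lower in its abundant pieces. A near full-length unigene (residues 111 to 7030 of 7031) read 20113 and 9925, a log2 ratio of -1.02 (-1.07 to -0.97). A short unigene of a second hit read 15749 and 6735, at -1.23. The 7 pieces of the remaining hit, a *T. canis* protein of 11591 residues, had between 37.5 and 104 normalized counts in their higher condition and ran from -0.53 to 2.22. All of these pieces lie far below the near full-length unigene in counts.

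UNC-89, the obscurin-like protein of the M-line, showed the widest spread of the giants. Its most abundant unigene, aligned with the whole of a 1545-residue *A. suum* protein, read 15959 and 14052, at -0.18 (0.20 under total scaling). Over the 16 unigenes with enough counts, 10 of them above equality, log2 ratios ran from -1.25 to 3.51. Pieces centred before the midpoint of the long hits (3000 residues or more) were higher in condition B in 8 of 8 unigenes, with a median of 1.08 and a range of 0.49 to 3.51. The 6 pieces centred after the midpoint were split, 3 above and 3 below, with a median of -0.12. On shorter hits, 3 pieces were centred before the midpoint and 0 of them were higher in condition B.

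The pieces before the midpoint of the long hits had few counts, between 13.8 and 540 in their higher condition. The most abundant, aligned with residues 242 to 1574 of 6467, read 142 and 540, at 1.92 (1.55 to 2.33). The highest ratio, 3.51, came from 2.03 and 33.5 normalized counts, and its interval ran from 1.37 to 9.43. Over all *A. galli* unigenes the median log2 ratio was 0.87 at 20 to under 100 normalized counts and -0.70 in the next range up, which holds 5 of these 8 pieces. The split at the midpoint was made after the values were seen and carries no test.

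**Figure D3:**
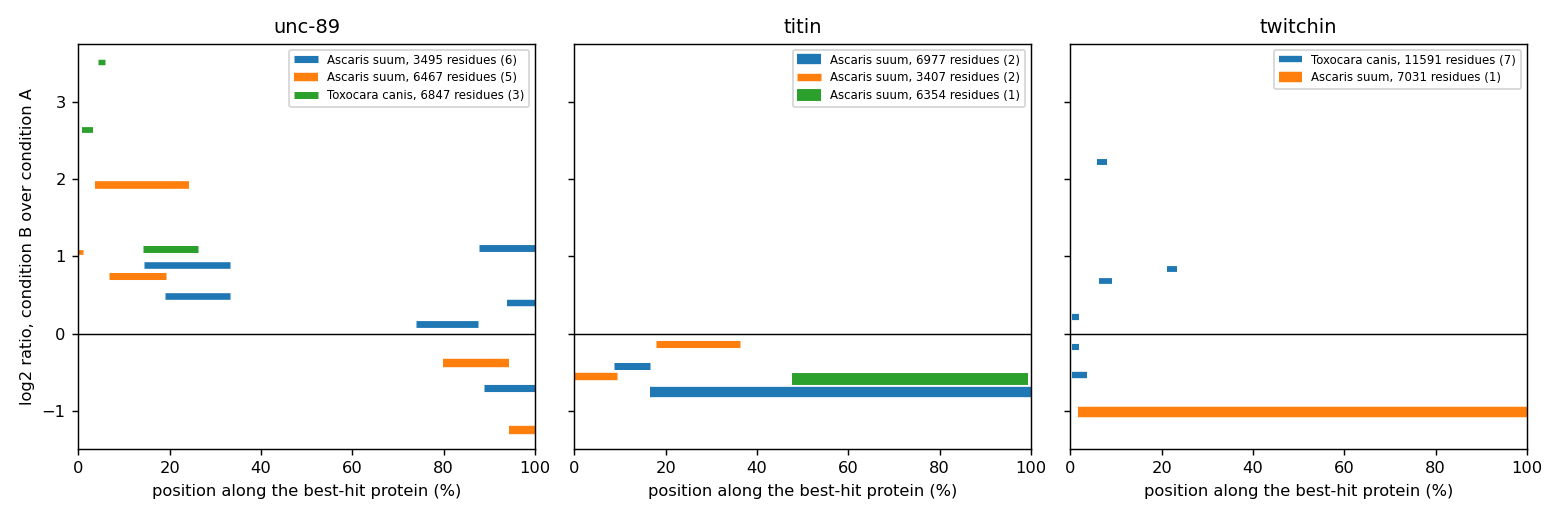
Pieces of UNC-89, titin and twitchin in *A. galli*, drawn as bars over the stretch (% of length) of the best-hit protein they align with, at their log2 ratio of condition B over condition A; colour marks the hit, with its number of pieces, and thicker bars have more counts. Only hits of 3000 residues or more are drawn; on these, UNC-89 pieces before the midpoint lie above 0, while the long titin and twitchin pieces lie below 0.

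A further 58 *A. galli* unigenes matched the rule by name but are not parts of the sarcomere by that name: unconventional and nonmuscle myosins, myosin light chain kinase and proteins with a calponin homology domain. Of these, 56 had enough counts, 0 were higher and 2 were lower, with a median of -0.69. Over all unigenes 22.7% were higher and 9.76% lower, with a median of -0.09, or -0.59 among ascaridid hits. Myosin VI, the motor that walks toward the pointed end of actin, read 7166 and 2384 in its main unigene, at -1.59. A unigene named Unconventional myosin-vi (29.3% identity) had the lowest ratio of all members, from 5835 to 613, at -3.25 (-3.42 to -3.08). Another named Unconventional myosin-VI with 61.7% identity read 1866 and 3209, at 0.78, so the myosin VI names went both ways.

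Myosin light chain kinase 3 also went both ways. Its 2 unigenes align with nearly the same residues of 1 *A. suum* protein, at 52.1% and 51.7% identity. The first read 2320 and 344 normalized counts, a log2 ratio of -2.75, and the second read 148 and 560, at 1.91. The difference of 4.66 was the largest of 89 pairs of *A. galli* muscle unigenes that overlap on the same hit by 80% or more. Of these pairs 72 agreed within 2-fold, 26 had opposite signs and the median difference was 0.42. Ordered by the lower end of their counting intervals, the 5 largest rises among members with at least 100 normalized counts were this second unigene, the myosin VI unigene at 0.78 and 3 pieces of UNC-89, the highest of them at 1.92.

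**Figure D4:**
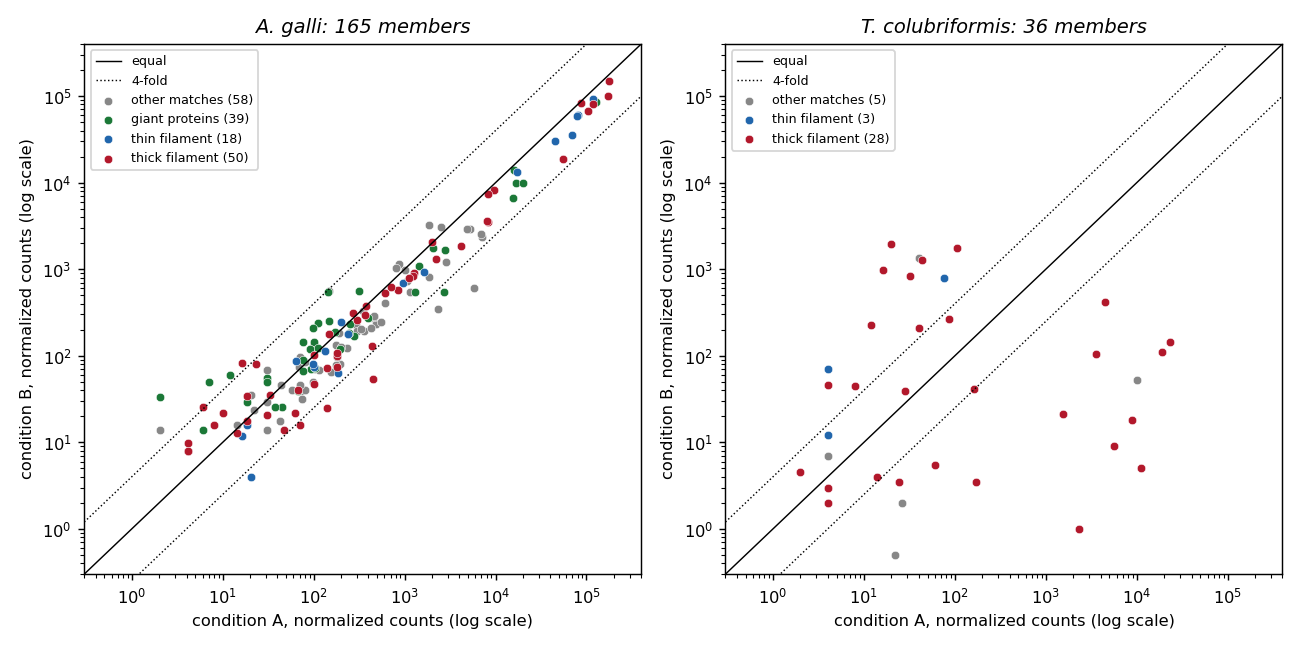
Normalized counts of each muscle unigene in condition A (horizontal, log scale) and condition B (vertical, log scale), with solid lines at equality and dotted lines at 4-fold, coloured by protein class. The 165 members of *A. galli* follow the diagonal, while the 36 members of *T. colubriformis* lie mostly far above it or far below it.

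Proteins that work with the filaments were matched by name from a list of companions, and most lay within 4-fold in *A. galli*. Of 13 actin unigenes 0 were higher and 1 was lower, with a median of -0.22. Actin-1, the most abundant, read 50078 and 50802, at 0.02 (0.40 under total scaling). Of 54 unigenes for attachment of filaments to the membrane and cuticle, 2 were higher and 0 lower, and Talin-1 read 24672 and 21458 at -0.20. Of 18 for calcium release and uptake, 0 were higher and 0 lower, with Calsequestrin at -0.19. The myosin chaperone unc-45, which folds the heavy chain head, read 840 and 368, at -1.19. Of 6 unigenes for capping and turnover of thin filaments 0 were higher and 0 lower, and of 20 for phosphagen and adenylate kinases, which buffer energy supply, 5 were higher and 0 lower. The background for all these counts is the 22.7% higher and 9.76% lower of all unigenes, and 5 of 20 lies near it.

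Markers of other tissues were also read in the *A. galli* libraries. Over all unigenes 22.7% were higher and 9.76% lower. Of 158 unigenes of major sperm protein, 52 were lower and 3 higher in condition B, and their summed counts went from 5077184 to 1523105 (-1.74). Cuticle collagens and cuticlins, made by the hypodermis, were at 0.36 for summed counts, which dpy-5 dominated, and at a median of -0.39, with 3 of 67 unigenes higher and 7 lower. Eggshell products were at -0.83 for summed counts and at a median of -0.57, with 2 of 36 higher and 4 lower. The lower shares of cuticle and eggshell unigenes lay near that of all unigenes. Cathepsin B, a peptidase of the intestine, was at -1.57, with 0 of 7 higher and 1 lower. Vitellogenin, the yolk protein, was listed with 360 and 1209 summed normalized counts, and 2 of 3 unigenes were higher. In whole worms a smaller share of muscle cells and less RNA per cell cannot be told apart, and the part of these markers in the muscle values was not tested.

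In *T. colubriformis* the muscle unigenes fell into 2 groups far from equality. Of 30 with enough counts, 12 were higher, 15 were lower and 3 lay within 4-fold. At the deposited scaling a unigene high in A reached the minimum on fewer reads than one high in B. A lower one, named for calponin and filamin domains, had 11 reads in A and 1 in B. The same minimum was used for all unigenes. Over all 37391 unigenes of this worm, 39.7% were higher and 41.6% lower, so the muscle shares (40% and 50%) lay near the background. Under total scaling 15 of 28 were higher and 10 lower, against 55.7% and 28.1% of all. The median moved from -2.22 to 2.72 with that scaling, so no central value is given weight. No listed unigene of this worm had a name of the giant proteins, troponin, paramyosin or a myosin light chain.

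Thick filament names covered 28 of the 36 *T. colubriformis* unigenes, mostly Myosin head, a domain that all myosins carry and that does not tell muscle from nonmuscle forms. Of 18 Myosin head unigenes with enough counts 6 were higher and 10 lower, against 39.7% and 41.6% of all unigenes. The most abundant (Sheep_Unigene_31753, 95.8% identity to an *Oesophagostomum dentatum* protein) read 23492 normalized counts in A and 144 in B, at -7.34 (-7.60 to -7.11) and -5.35 under total scaling. A second piece of the same hit read 11132 and 5, at -10.86.

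Pieces of another *O. dentatum* myosin, OESDEN_00322, were all higher in condition B. They read 20 and 1955, 32 and 834, and 12 and 229 normalized counts, with log2 ratios of 6.54, 4.66 and 4.14. Their identity to the hit was 98.2%, 100% and 99.2%. Myosin tail, the rod that packs into the filament, was higher in 3 of 3 unigenes, among them 44 and 1285 normalized counts at 4.84, and 16 and 968 at 5.83. Both unigenes named Myosin head (Fragment) were lower, reading 8808 and 18, and 5610 and 9.

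A single hit did not always give a single direction. Of 6 pieces of OESDEN_03885, 4 were lower and 2 higher. Between residues 1394 and 1943 of it, 1 piece read 18830 and 111.5 and another 172 and 3.5, at -7.39 and -5.26, while the piece at its very end read 8 and 44.5, at 2.34. The identities to the hit were 82.3%, 83.3% and 73.1%. Of the 3 pairs in this worm that overlap by 80% or more, 0 agreed within 2-fold and 2 had opposite signs.

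Thin filament names covered 3 *T. colubriformis* unigenes. Tropomyosin aligned over the full 284 residues of a *Teladorsagia circumcincta* protein read 76 and 790, a log2 ratio of 3.36 (2.73 to 4.12) and 5.33 under total scaling. A tropomyosin piece read 4 and 70, at 3.83. The calponin repeat unigene, with 4 and 12 normalized counts, was under the minimum. A full-length tropomyosin at 76 and 790 normalized counts stands beside Actin, the most abundant of the actin unigenes, which read 50258 and 10397 (-2.27, and -0.28 under total scaling).

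Companion lists of *T. colubriformis* went both ways, as did all unigenes of this worm, of which 39.7% were higher and 41.6% lower. Of 12 actin unigenes 6 were higher and 4 lower, and of 5 for calcium handling 3 were higher and 2 lower. For attachment 3 of 9 were higher and 4 lower, for thin filament turnover 0 of 4 were higher and 3 lower, and for energy supply 1 of 7 was higher and 3 lower. Of 52 cuticle unigenes 22 were higher and 20 lower, and of 24 for major sperm protein 11 were higher and 5 lower. The part of these tissues in the muscle values was not tested.

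**Figure D5:**
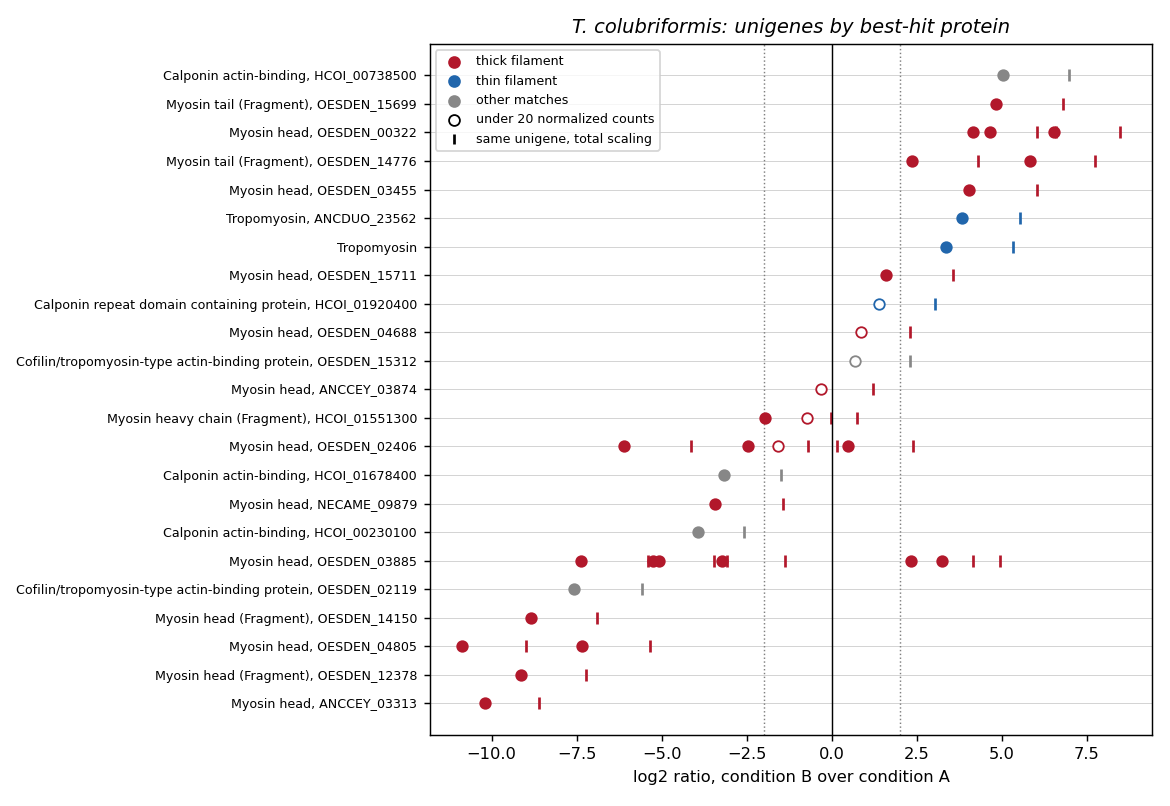
Log2 ratio of condition B over condition A for the 36 muscle unigenes of *T. colubriformis*, 1 row per best-hit protein, at the deposited scaling (circles, open where under 20 normalized counts) and under total scaling (vertical ticks); dotted lines mark 4-fold. Most rows lie wholly on 1 side, from -10.86 to 6.54, and the rows of OESDEN_03885 and OESDEN_02406 have pieces on both.

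The authors' deposited table marked 7 of the 165 *A. galli* muscle unigenes DOWN, 6 UP and 152 NEUTRAL. For *T. colubriformis* the authors' deposited table marked 15 DOWN, 12 UP and 9 NEUTRAL. Every adjusted p-value of a muscle unigene in the authors' deposited tables was 1.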

How the data were processed

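Per the labels' protocols, poly(A) RNA of whole worms was made into libraries with the NEBNext Ultra kit and read on an Illumina HiSeq. The submitters' processing notes name DESeq without a version. The authors' deposited tables hold 1 line per unigene: normalized counts of both conditions, the ratio between them and that ratio on the log2 scale, raw and adjusted p-values, and the UniProt hit with percent identity and aligned positions. Aligner settings, assembly and annotation are not given in the sources used. A stray line of the *A. galli* table that names bowtie2, with 1 normalized count in each condition, was left out.

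Whole reads were recovered from the steps of the normalized counts. All values up to 200 (100%) were whole within 0.1 read. Of the recovered read counts of all unigenes, larger values included, between 63.5% and 75.2% per library were even, so intervals used reads divided by 2. Alternatives were scaling on totals or by the trimmed mean of M-values, a pseudocount of 5 in place of 1, other minimums and thresholds, and 1 unigene per product name or per best hit. Named unigenes are, per worm and class, the most abundant unigene of 5 product names, the 5 largest rises and falls with at least 100 normalized counts, ordered by whichever end of the interval lies closer to 0, and the most abundant of each companion list. Other unigenes named were chosen after their values were seen, for pieces and copies of the same hit. A count model needs replicates and was not fitted. The members and lists were chosen with earlier results of these data known. Python 3.11.15, numpy 2.4.6, pandas 2.3.3 and scipy 1.17.1 were used. The counting and calling steps were run on simulated counts with equal scaling and counting error only. Those counts were drawn without read pairs, so the run does not check the coverage of the intervals given here.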

Additional observations from a re-analysis of the deposited data

How the results depend on the processing

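The 4 higher *A. galli* muscle unigenes became 8 under total scaling, 7 with the trimmed mean of M-values, 0 with a minimum of 100, 12 at 2-fold, 0 when the whole counting interval had to pass, 1 with 1 unigene per name and 1 with counts summed per best hit (the last was added after seeing the data). The 7 lower became 4, 34 at 2-fold, 4 by interval, 3 per name and 4 per best hit. In *T. colubriformis* the median of -2.22 became 2.72 under total scaling, 1.46 with the trimmed mean, -0.53 with no minimum and -0.76 for sarcomere names only. Its 12 higher became 3 per name and 7 per best hit, and its 15 lower 5 per name. Under total scaling 5 of 28 named *A. galli* unigenes changed sign and 3 crossed the 4-fold threshold, and in *T. colubriformis* 0 of 16 changed sign and 2 crossed it. The causes of these moves were not tested beyond the smaller number of unigenes left. Pieces with few counts have wide counting intervals. No paired analysis was possible because each worm has 1 library per condition and the columns carry no replicate number.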
